A study of Drosophila melanogaster with 6 samples.

Results

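Accessory gland and seminal fluid protein genes were examined in RNA from dissected testes of *Drosophila melanogaster*. The genes were taken by name: a probe set had to be assigned to exactly 1 gene in the annotation of the array, and the symbol of that gene had to start with *Acp* or *Sfp* and a digit, or with *Mst57D*, or be *SP*. This gave 24 genes of 11983, each with 1 probe set, and no minimum of expression was used. The 2 groups were *Pof* mutant males (*y1 w67c23; PofD119/PofD119*) and wild type control males (*y1 w67c23*), so both carried the same X chromosome markers. The flies were raised at the same temperature, and males were 0 to 24 h old. Each genotype had 3 biological replicates of 60 testes each, hybridised to 6 Affymetrix arrays in all. The mutation was carried by the whole animal and was not restricted to testis cells.

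The accessory glands are paired glands of the male reproductive tract that open into the ejaculatory duct. Their secretory cells make most of the proteins of the seminal fluid, which are transferred to the female with the sperm and change her egg laying, her receptivity to further mating and her use of stored sperm. Sex peptide, the product of *SP*, acts on the female through its receptor SPR. *Pof* encodes a protein that binds chromosome 4, and none of the 24 genes lies on that chromosome.

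The deposited values are RMA levels on the log2 scale, so a difference of 1 is a doubling. A constant of -0.017, 0.064 and 0.15 was added to *Pof* mutant replicates 1, 2 and 3, which brought their mean level over expressed genes to that of wild type, and every level given below includes it. The array medians lay between 5.78 and 5.88 and the highest values between 14.59 and 14.66. *Pof* itself had levels of 10.36, 10.56 and 10.44 in mutant testes, against 12.98, 13.06 and 12.89 in wild type (log2 change -2.52, standard error 0.095, limma adjusted p = 7.6e-05). Both replicate 2 arrays stood apart from the other 4 on a first principal component with 52.6% of the variance. Of 13 measured markers of the male germline, 10 reached 6 or more in the wild type mean, beside 7510 of all 11983 genes. The wild type means of *vas*, *aly* and *bam* lay below 6, at 4.45, 4.82 and 5.30. With total RNA of dissected organs, fewer cells of a type and less RNA per cell cannot be told apart.

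Transcripts of most of the 24 genes were abundant on all 6 arrays, and the tissue they came from was not tested. For 23 of the 24 genes the wild type mean reached 6, the minimum in the methods of the study, beside 7510 of all 11983 genes. A wild type mean above 13, between 13.19 and 14.22, was found for 11 of the 24, beside 105 of all genes. These 11 lay close to the upper end of the arrays, and their changes lay between 0.043 and 0.21. Only *Sfp65A*, with 5.73, 5.90 and 6.11 in *Pof* mutants and 5.84, 5.65 and 5.80 in wild type, had a wild type mean under 6. The 5 accessory gland markers with a probe set (*SP*, *Acp26Aa*, *Acp36DE*, *Acp62F* and *Acp76A*) belong to the 24 genes and to the 11 above 13. They are therefore no separate check.

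The genes were short and autosomal. In the Release 6 annotation 20 of the 24 spanned less than 1000 bp, or 83.3%, against 16.2% of all measured genes. Their median span was 605.5 bp (175 to 2982 bp), against 2263 bp. None lay on the X chromosome, which held 15.7% of the measured genes, while 9 lay on 2L, 5 on 2R, 6 on 3L and 4 on 3R. The 5 genes of 2R formed one cluster: *Acp53C14a*, *Acp53C14b*, *Acp53Ea* and *Acp53C14c* follow each other directly, and *Sfp53D* is separated from them by 1 gene. *Acp26Ab* and *Acp26Aa* are direct neighbours, and *Mst57Dc* and *Mst57Da* have 2 genes between them.

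Of the 24 genes, 1 was higher in *Pof* mutants than in wild type, 0 were lower and 23 did not pass in limma (adjusted p between 0.116 and 0.961 for those 23). Of all 11983 genes, 246 were higher (2.05%) and 171 lower (1.43%), so 1 higher gene of 24 lies close to the share over all genes. Without the constant 152 of all genes were higher and 180 lower, and a constant set on linear values gave 199 higher and 207 lower genes. The median log2 change of the 24 genes was 0.15, beside a median of 0.068 over all genes, and without the constant it was 0.083, beside 0.0027. The mean of 22 genes lay above wild type and that of 2 below it, beside 7770 above and 4213 below over all genes. An unadjusted p under 0.05 was reached by 6 higher and 1 lower gene of the 24, beside 1145 higher and 718 lower of the 11983. When the replicate number was fitted as a block, *Sfp26Ad* was again the one gene called, 1 higher and 0 lower, beside 3.5% higher and 2.8% lower of all genes.

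**Figure D1:**
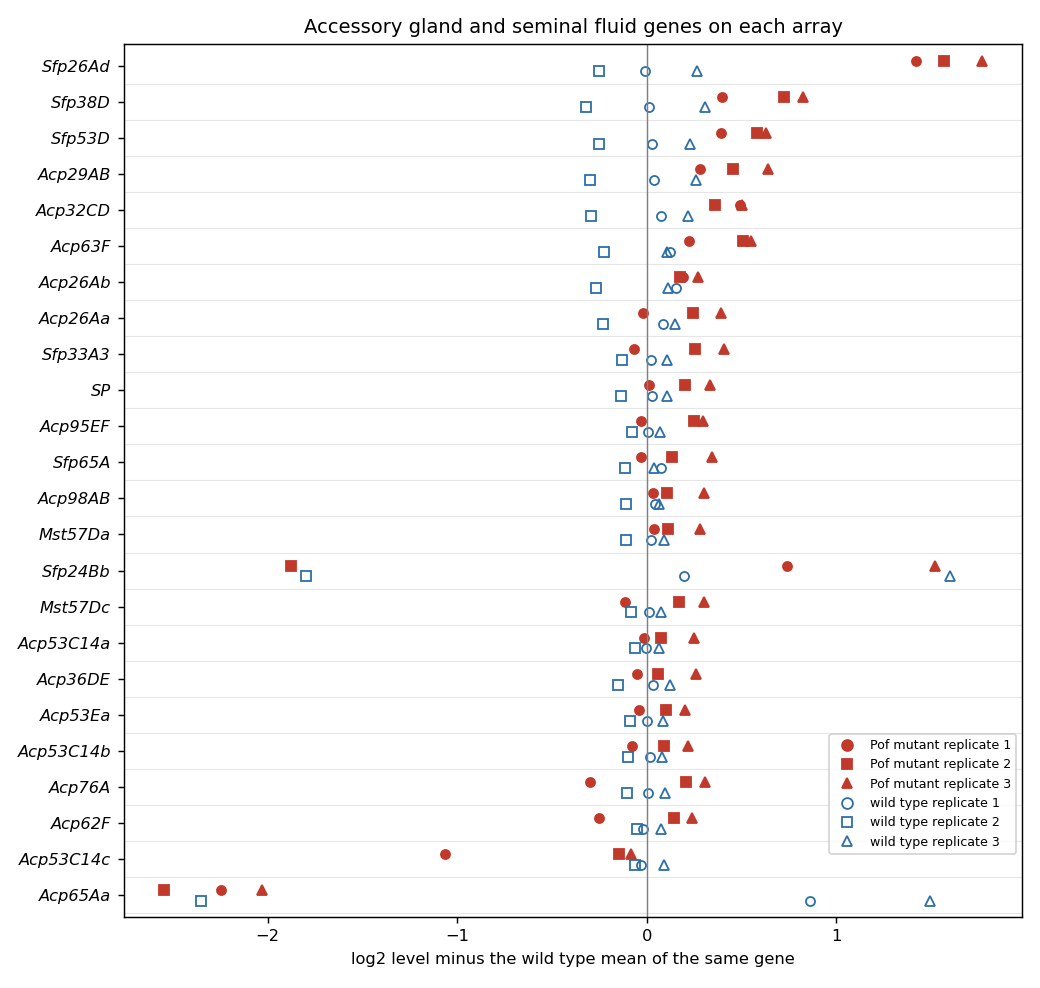
Level of the 24 genes on each array (x axis, log2 level minus the wild type mean of the same gene), with *Pof* mutant arrays as filled red symbols above wild type arrays as open blue symbols in each row. *Sfp26Ad* is apart from its wild type arrays by more than 1 on every mutant array, and wild type replicate 2 is the lowest wild type array in every row.

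*Sfp26Ad*, a seminal fluid protein gene of 2L, was the one gene that rose. Its levels were 12.83, 12.98 and 13.18 in *Pof* mutant testes, against 11.40, 11.16 and 11.67 in wild type testes. Every mutant array thus lay above every wild type array by more than 1. The log2 change came to 1.59 (standard error 0.16, limma adjusted p = 0.0030), which is 300.3% of the wild type level, with a higher value in each of the 3 pairs of arrays with the same replicate number. With pairs of replicates as a block the adjusted p was 0.0023. It was 0.0058 without wild type replicate 2 (change 1.47) and 0.021 without both replicate 2 arrays (change 1.48). Among the 5 measured genes on each side of *Sfp26Ad* along 2L, 0 were higher and 0 lower, beside 2.05% and 1.43% of all genes. Their changes lay between -0.54 and 0.51 (adjusted p between 0.134 and 0.959).

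**Figure D2:**
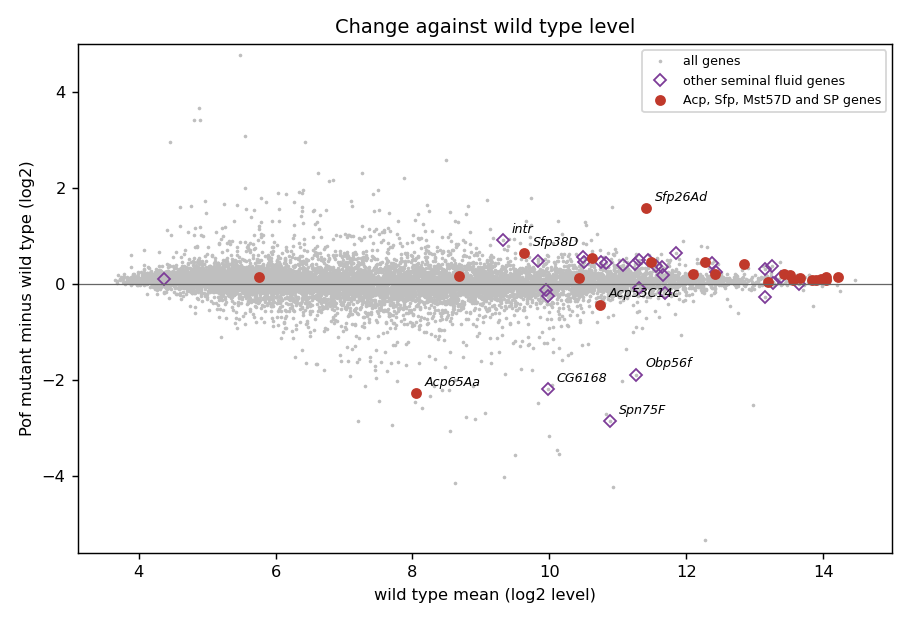
Log2 change between *Pof* mutant and wild type (y axis) against the wild type mean level (x axis, log2) for all 11983 genes in grey, the 24 genes in red and 30 other seminal fluid genes as open diamonds. *Sfp26Ad* lies at 1.59, and the 11 genes with a wild type mean above 13 lie between 0.043 and 0.21.

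For 7 of the 24 genes every mutant array lay above every wild type array, and for 1, *Acp53C14c*, every mutant array lay below. Over all genes these shares were 14.6% above and 8.02% below. Without the constant 6 of the 24 genes lay above in this way, and *Acp26Ab* did not, beside 9.15% of all genes. Besides *Sfp26Ad*, the 6 genes that lay above had changes between 0.21 and 0.65, or 116% to 157% of the wild type level, and none of them passed the test (adjusted p between 0.116 and 0.495). They were *Sfp38D*, *Sfp53D*, *Acp29AB*, *Acp32CD*, *Acp63F* and *Acp26Ab*.

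*SP* and *Acp26Aa* encode products that act on the mated female, and *Acp26Ab* is the neighbour of *Acp26Aa*. *SP*, which encodes sex peptide, had levels of 13.52, 13.71 and 13.85 in *Pof* mutants, against 13.54, 13.37 and 13.62 in wild type. The groups overlapped, and the change was 0.18 (standard error 0.12, limma adjusted p = 0.523). *Acp26Aa*, which encodes the ovulation-stimulating protein ovulin, had levels of 13.40, 13.67 and 13.82 in mutants and 13.51, 13.19 and 13.57 in wild type. Its mutant replicate 1 lay below wild type replicates 1 and 3, and the change was 0.21 (standard error 0.15, adjusted p = 0.564). *Acp26Ab* had levels of 12.29, 12.27 and 12.37 in mutants and 12.25, 11.83 and 12.21 in wild type. The mutant arrays lay just above the wild type ones, with a change of 0.21 (standard error 0.13, adjusted p = 0.495).

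*Acp36DE* and *Acp29AB* act in the storage of sperm in the female. *Acp36DE*, which encodes a large glycoprotein, had levels of 13.85, 13.96 and 14.16 in *Pof* mutants and 13.93, 13.75 and 14.02 in wild type (change 0.088, standard error 0.12, limma adjusted p = 0.743). The groups overlapped. *Acp29AB*, which encodes a protein of the C-type lectin family, had levels of 11.77, 11.94 and 12.13 in mutants, against 11.53, 11.19 and 11.74 in wild type. Mutant replicate 1 and wild type replicate 3 differed by less than the replicates of either genotype did. The change was 0.46 (standard error 0.16, adjusted p = 0.240, and 0.097 in the paired fit).

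The protease inhibitor genes had the smallest differences of the 24. *Acp62F*, which encodes a trypsin inhibitor, had levels of 12.94, 13.33 and 13.43 in *Pof* mutants and 13.17, 13.14 and 13.26 in wild type. *Acp76A*, which encodes a serpin, had levels of 13.26, 13.77 and 13.87 in mutants and 13.57, 13.46 and 13.65 in wild type. On both, mutant replicate 1 was the lowest of the 6 arrays and the other mutant arrays were the highest. The changes were 0.043 and 0.073 (limma adjusted p = 0.896 and 0.848), and that of *Acp62F* was -0.022 without the constant.

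In the cluster of 2R none of the 5 genes passed, and their changes lay between -0.43 and 0.53. *Acp53C14a*, *Acp53C14b* and *Acp53Ea*, all at levels between 13.75 and 14.26, had changes of 0.10, 0.076 and 0.088 (limma adjusted p between 0.662 and 0.753). *Acp53C14c* had levels of 9.67, 10.59 and 10.66 in *Pof* mutants, against 10.71, 10.68 and 10.83 in wild type. Its 3 mutant arrays lay below the wild type ones, mostly through replicate 1, and the change was -0.43 (standard error 0.26, adjusted p = 0.485). *Sfp53D* had levels of 11.01, 11.20 and 11.25 in mutants and 10.65, 10.37 and 10.85 in wild type, with a change of 0.53 (standard error 0.14, adjusted p = 0.116). Its probe set is of the kind that can bind transcripts of more than one gene, so its level is uncertain.

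The other *Acp* and the *Mst57D* genes had values on the same side. *Acp32CD* had levels of 12.77, 12.64 and 12.78 in *Pof* mutants and 12.35, 11.99 and 12.50 in wild type (change 0.45, standard error 0.14, limma adjusted p = 0.182). *Acp63F* had levels of 13.07, 13.35 and 13.40 in mutants and 12.97, 12.62 and 12.95 in wild type (change 0.43, standard error 0.14, adjusted p = 0.195). In both genes the spread of the wild type arrays came mainly from replicate 2. *Mst57Da*, a male-specific transcript of the accessory gland, had levels of 14.08, 14.16 and 14.32 in mutants and 14.06, 13.93 and 14.13 in wild type (change 0.14, adjusted p = 0.565). *Mst57Dc* had levels of 13.55, 13.83 and 13.97 in mutants and 13.67, 13.58 and 13.73 in wild type (change 0.12, adjusted p = 0.681). The groups of both *Mst57D* genes overlapped, as did those of *Acp98AB* (change 0.15) and *Acp95EF* (change 0.17).

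Among the *Sfp* genes *Sfp38D* followed *Sfp26Ad* in size, with levels of 10.02, 10.35 and 10.45 in *Pof* mutants and 9.64, 9.30 and 9.93 in wild type. Its lowest mutant array lay just above its highest wild type array, and the change was 0.65 (standard error 0.19, limma adjusted p = 0.142, and 0.065 in the paired fit). *Sfp33A3* and *Sfp65A* had changes of 0.20 and 0.15, with overlapping groups.

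**Figure D3:**
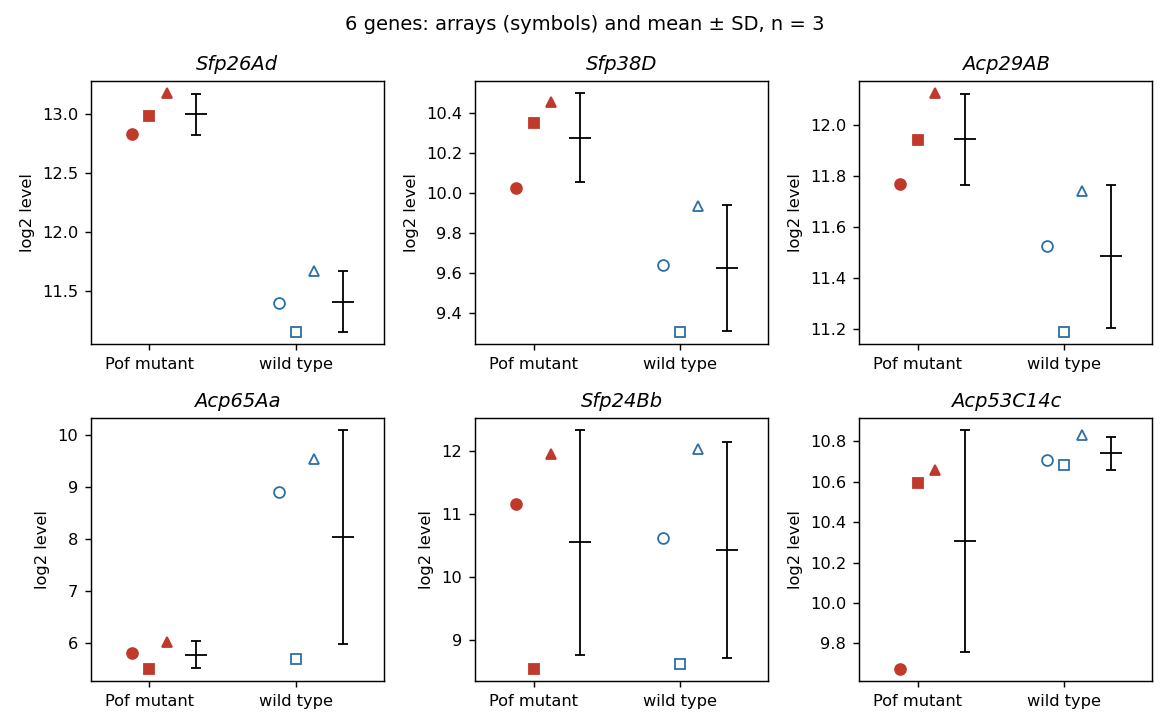
Level (y axis, log2, a separate range in each panel) of 6 genes in *Pof* mutant (filled red) and wild type (open blue) testes, with circles, squares and triangles for replicates 1, 2 and 3 and bars for the mean ± SD (n = 3). The groups do not overlap in *Sfp26Ad*, *Sfp38D*, *Acp29AB* and *Acp53C14c*, but nearly meet in the last 2, and only *Sfp26Ad* passed the test. *Sfp24Bb* is low on both replicate 2 arrays, and *Acp65Aa* is high only on wild type replicates 1 and 3.

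*Acp65Aa* is a gene of this list by its symbol only. It encodes a protein of the adult cuticle, not of the accessory gland, and its levels did not follow those of the others. They were 5.80, 5.50 and 6.02 in *Pof* mutants and 8.91, 5.69 and 9.54 in wild type, so wild type replicate 2 lay among the mutant arrays. The change of -2.27 (standard error 0.92, limma adjusted p = 0.300) did not pass. It passed without wild type replicate 2 (-3.44, adjusted p = 0.0017), and without both replicate 2 arrays (-3.30, adjusted p = 0.0060), a setting chosen after the data were seen. Without *Acp65Aa* the median change of the other 23 genes was 0.15.

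*Sfp24Bb* differed more between replicates than between genotypes. Its levels were 11.17, 8.55 and 11.95 in *Pof* mutants, against 10.62, 8.63 and 12.03 in wild type. Replicate 2 was low in both genotypes, at -3.01 in mutants and -2.70 in wild type relative to the mean of replicates 1 and 3, and the change between genotypes was 0.13 (standard error 1.09, limma adjusted p = 0.961). Of all 11983 genes, 113 (0.943%) were lower on replicate 2 by more than 2 in both genotypes, and *Sfp24Bb* was the one such gene of the 24. *Ebp* and *EbpII*, genes of the ejaculatory bulb, lay at -2.73 and -2.63 in mutants and at -2.45 and -2.24 in wild type by the same measure. The muscle actin gene *Act79B* lay at -3.03 in mutants and -2.91 in wild type, and *SP* at 0.030 in mutants and -0.21 in wild type. What sets the replicate 2 arrays apart was not tested.

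**Figure D4:**
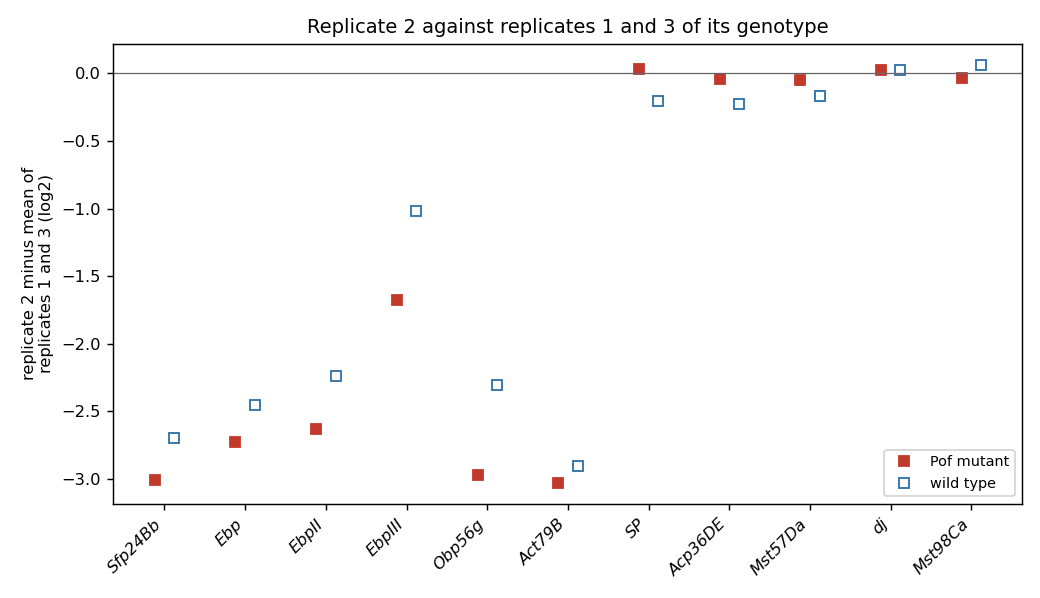
Level on replicate 2 minus the mean of replicates 1 and 3 of the same genotype (y axis, log2) for *Sfp24Bb*, genes of the ejaculatory bulb, *Obp56g*, *Act79B*, accessory gland genes and germline genes, with *Pof* mutants as filled red and wild type as open blue squares. *Sfp24Bb* lies at -3.01 and -2.70, while *SP*, *Acp36DE* and *Mst57Da*, all with a wild type mean above 13, lie within 0.25 of 0. *Sfp38D*, at a lower level and not plotted, lay at 0.11 in mutants and -0.48 in wild type.

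The genes shared a pattern over the replicates of one genotype. All 24 had their lowest wild type level on replicate 2, against 29.6% of all genes. The same held for 29 of 30 other seminal fluid genes and for 6 of 6 genes of the ejaculatory duct and bulb. It also held for 3 of 3 fat body and haemolymph genes, 4 of 5 muscle genes, 3 of 5 regulator and receptor genes and 2 of 4 hub and cyst cell genes, and for 0 of 13 germline markers. The median of the 24 genes lay at 0.024, -0.13 and 0.11 on wild type replicates 1, 2 and 3, relative to the wild type mean of each gene. Over all genes these medians were -0.0167, 0.0432 and -0.0302. On the mutant arrays the medians were -0.017, 0.17 and 0.31, beside -0.0125, 0.0885 and 0.0997 over all genes. The mutant medians include the constants of -0.017, 0.064 and 0.15. Mutant replicate 1 was the lowest mutant array for 20 of the 24 genes, beside 48.8% of all genes and 72.8% of the 1044 genes with a wild type mean above 11. Without the constant it was the lowest for 18 of the 24 genes, beside 25.9% of all genes. Apart from *Acp65Aa* and *Sfp24Bb*, the SD of a gene lay between 0.053 and 0.55 in mutants and between 0.065 and 0.32 in wild type. The arrays of one genotype therefore differed in these genes together, and the wild type medians lay further apart than the median change of 0.15 between genotypes.

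Other genes of the seminal fluid, whose symbols do not follow the naming rule, were compared in the same fit. Of 34 listed genes 30 were measured, and 2 were higher and 3 lower in *Pof* mutants, while 25 had no call, beside 2.05% higher and 1.43% lower of all genes. Their median change was 0.34, beside 0.068 over all genes, with 22 means above and 8 below wild type. For 12 of the 30 every mutant array lay above every wild type array and for 3 below, beside 14.6% above and 8.02% below of all genes. *CG17575* and *Sems* were among the 12 only with the constant, without which 9.15% of all genes lay above. The lower genes had large changes. *Spn75F*, which encodes a serpin, had levels of 7.54, 8.28 and 8.27 in mutants, against 11.10, 10.50 and 11.07 in wild type (change -2.86, standard error 0.25, limma adjusted p = 0.0018). *CG6168* had levels of 7.61, 7.96 and 7.81 in mutants and 10.05, 9.67 and 10.21 in wild type (change -2.18, standard error 0.16, adjusted p = 0.0010). *Obp56f*, a member of the odorant-binding protein family, had levels of 9.03, 9.77 and 9.35 in mutants and 11.43, 11.07 and 11.31 in wild type (change -1.89, standard error 0.20, adjusted p = 0.0040). In all 3 genes the mutant arrays lay more than 1 below the wild type arrays.

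Sex peptide is bound to sperm in the female with the help of further seminal proteins, and the means of these genes lay above wild type. Of its 9 measured genes (*SP*, *CG9997*, *lectin-46Ca*, *lectin-46Cb*, *CG17575*, *aqrs*, *antr*, *intr* and *Sems*), 1 was higher, 0 were lower and 8 had no call. Of all genes 2.05% were higher and 1.43% lower. The changes of the 9 genes lay between 0.18 and 0.91, with a median of 0.43. In 6 of the 9 every *Pof* mutant array lay above every wild type array, beside 14.6% of all genes with the constant and 9.15% without it. Of these 6, *CG17575* and *Sems* did so only with the constant. Their lowest mutant levels, 11.80 and 11.57 on replicate 2, lay above the highest wild type levels, 11.79 and 11.52, by less than the 0.064 added. In *SP*, *CG9997* and *aqrs* mutant replicate 1 lay below wild type replicate 1. *intr*, which encodes a protein of the serine protease family, had levels of 10.03, 10.35 and 10.31 in *Pof* mutants, against 9.31, 9.07 and 9.58 in wild type. The change was 0.91 (standard error 0.16, limma adjusted p = 0.028), and the adjusted p lay between 0.061 and 0.136 without any one mutant array or without wild type replicate 1. *antr*, which encodes a cysteine-rich secretory protein, had a change of 0.57 (adjusted p = 0.136) and the trypsin-like *Sems* one of 0.43 (adjusted p = 0.335). The other higher gene of the seminal fluid list was *Obp56i* (change 0.48, adjusted p = 0.046), which did not pass without the constant (adjusted p = 0.060), in the paired fit (adjusted p = 0.0501) or without any one array. All 9 network genes had their lowest wild type level on replicate 2.

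Of 5 measured genes for regulators of the reproductive tract and the receptor of sex peptide, 0 were higher and 0 lower when all probe sets of a gene were averaged. The shares over all genes were 2.05% higher and 1.43% lower. The receptor gene *SPR* had levels of 4.26, 4.35 and 4.44 in *Pof* mutants and 4.26, 4.28 and 4.30 in wild type. *prd*, which encodes a transcription factor needed for accessory gland development, had levels of 8.75, 8.81 and 8.93 in mutants and 9.13, 9.05 and 9.25 in wild type (change -0.31, standard error 0.097, limma adjusted p = 0.168). Its groups did not overlap. *dve*, which encodes a homeodomain transcription factor, lay on the other side, with 5.85, 5.73 and 5.87 in mutants and 5.54, 5.44 and 5.67 in wild type (change 0.27, standard error 0.097, adjusted p = 0.244), and its groups did not overlap either. The nuclear receptor gene *Hr39* had 4 probe sets at different levels, and their average changed by -0.42 (standard error 0.087, adjusted p = 0.056). With the probe set of the highest level in place of the average it passed, at 7.27, 7.26 and 7.03 in mutants, against 8.71, 9.10 and 8.71 in wild type (change -1.65, standard error 0.14, adjusted p = 0.0015).

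Markers of other tissues differed in how they moved with the genotype. Over all genes 2.05% were higher and 1.43% lower, and 3.5% and 2.8% with the replicate block. Of 6 measured genes of the ejaculatory duct and bulb 0 passed, and their median relative to the wild type means was 0.20, -0.63 and 0.82 for mutant replicates 1, 2 and 3, beside 0.061, -0.53 and 0.47 in wild type. Of 5 muscle genes and 4 hub and cyst cell genes 0 passed. All 3 measured fat body and haemolymph genes were lower in *Pof* mutants, *Fbp1* by a change of -1.60, *Fbp2* of -2.02 and *Lsp2* of -1.56 (limma adjusted p between 0.0099 and 0.033). Of the 13 germline markers 0 were higher and 2 lower, *dj* (change -0.68, adjusted p = 0.0060) and *Mst84Db* (-0.47, adjusted p = 0.039). In the paired fit 1 was higher, *mia*, a meiotic arrest gene (change 0.68, adjusted p = 0.125 in the fit without the block and 0.035 with it), and 2 were lower. The amount of accessory gland tissue on each array was not measured separately, and its part in the values above was not tested.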

How the data were processed

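The authors deposited log2 values from Affymetrix *Drosophila* arrays (version 2), which RMA had corrected for background, quantile normalized and summarised by probe set. The RMA version and the genome build of the design are not given in the sources used here. Since RMA gives all arrays one distribution, a shift of most genes in one direction would not be seen. Of 18952 probe sets, 13647 named 1 gene, 402 several and 4903 none, and only the first were used. They were averaged per gene into 11983 genes, none of which was dropped for a low level. A constant for each mutant array made its mean log2 level equal to that of wild type over the 7696 genes with 1 or more probe sets of a wild type mean of at least 6, with only those probe sets averaged, as the study's methods describe without naming the scale.

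Mutant minus wild type was tested for each gene (lmFit and eBayes of limma 3.58.1 under R 4.3.3) with Benjamini-Hochberg adjustment over all 11983 genes at 0.05. Arms, spans and gene order came from the Release 6 gene table, which matched 13544 of the probe sets, and no coordinates or sequences are given. Plots were made in matplotlib 3.10.9 under Python 3.11.15. On simulated data for this comparison over 11983 genes, a change of 0.5 was called in 17.4% of cases, one of 1 in 75.6% and one of 2 in 95.4%. The number of arrays sets the precision.

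The labels number both genotypes 1 to 3. Arrays of the same number were treated as pairs in the fit with the replicate block, which is the paired fit above. Deviations from the group means correlated over genes at 0.29, 0.86 and 0.59 for arrays of the same number. Mutant replicate 3 with wild type replicate 1 (0.56) and mutant replicate 1 with wild type replicate 3 (0.48) correlated more highly than the replicate 1 pair, and the other 4 combinations lay between -0.81 and -0.47. The fit without the replicate number was the main one. Values on every array are given for genes that passed, for the 10 with the largest absolute change and for genes of well known role. The genes, lists and tests were chosen with earlier results of these data known. Alternatives were the scaling, a minimum level, the replicate block, a variance trend with robust moderation, the probe set per gene and leaving out each array.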

Additional observations from a re-analysis of the deposited data

Results flagged for a closer look

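Probe sets assigned to several genes took no part in the comparison, and 6 of them name a gene of this family. For 2 of these every *Pof* mutant array lay above every wild type array as deposited, beside 9.15% of all genes on that scale. The probe set shared by *Acp33A* and *CG15841* had a lowest mutant level of 13.30 and a highest wild type level of 13.29, and its means of 13.39 in mutants and 13.18 in wild type differed by 0.20. The probe set shared by *CG43061*, *CG42869* and *Sfp93F* had levels of 4.99, 5.05 and 5.08 in mutants and 4.88, 4.69 and 4.99 in wild type, a difference of 0.19, close to background. The groups of the other 4 overlapped. Their mutant minus wild type differences were -1.31 (*CG31904* and *Acp1*), -0.15 (*Acp24A4* and *CG3513*), 0.034 (*CG43061* and *Sfp93F*) and 0.14 (*Sfp24F* and *CG15431*). None of the 6 differences was tested.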

How the results depend on the processing

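*Sfp26Ad* passed under all 14 alternatives. The count of higher genes among the 24 was 1 in each, and the count of lower genes was 0, except 1 (*Acp65Aa*) without wild type replicate 2 and 1 without both replicate 2 arrays, a setting added after the data were seen. The median change of the 24 genes lay between 0.073 and 0.24. Over all genes, higher and lower counts were 246 and 171, against 420 and 335 in the paired fit with the replicate block. Without the constant 152 were higher, and without both replicate 2 arrays 142. Leaving out one array gave 82 to 249 higher and 75 to 180 lower genes. Of the other seminal fluid genes 2 were higher, 1 without the constant, 1 with the block, 0 without both replicate 2 arrays and 0 to 1 without one array, while 3 were lower in every setting. *Acp62F*, with no call, changed sign to -0.022 without the constant, -0.011 with the linear constant and -0.024 without both replicate 2 arrays. *Acp76A* changed to -0.036 without both replicate 2 arrays. Leaving out one array gave -0.055 to 0.19 for *Acp62F*, below 0 without *Pof* mutant replicate 2 (-0.0070) or 3, and -0.045 to 0.26 for *Acp76A*, below 0 without *Pof* mutant replicate 3. *Pof* was lower and passed in all. The cause of these shifts was not tested. With 3 arrays a side, a change of 0.5 was called in 17.4% of cases on simulated data, whose noise was independent between genes. Most of the 24 genes changed by less than 0.5, and changes that small were not simulated. The 11 genes with a wild type mean above 13 lie close to the upper end of the arrays. Apart from these counts, the block changed the calls of *Obp56i* and, among the markers of other tissues, of the germline gene *mia* (adjusted p = 0.125 without the block and 0.035 with it), and of none of the 24 genes.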
